A study of Mus musculus with 4 samples.

Results

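The 8 chemoattractant receptor genes Ccr1, Ccr2, Cx3cr1, Cmklr1, Fpr1, Fpr2, Cxcr2 and Ackr3 were described in efferocytic and non-efferocytic bone marrow (BM) macrophages. They were taken by gene symbol from the 31053 genes in the files, and each symbol matched 1 gene. BM macrophages of male C57BL/6J mice 4 weeks old were grown with M-CSF and co-cultured for 16 to 18 h with apoptotic RM1 cells, a Ras and Myc induced mouse prostate cancer line killed by UV light and pre-labelled with the dye CFSE. Efferocytic BM macrophages were sorted as F4/80+CFSE+ cells, which carried the dye of the engulfed cells, and non-efferocytic BM macrophages as cells with F4/80 but no CFSE. Each of 2 experiments gave 1 single-cell RNA-Seq library per group, 4 libraries in all. In 1 place the study describes the non-efferocytic cells as macrophages alone, so their contact with apoptotic cells is not certain. How many mice gave each library is not stated beyond a general minimum per group for all macrophage experiments, so p-values measure only the spread between these libraries.

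These receptors sit in the cell membrane, span it 7 times and, apart from Ackr3, signal through Gi proteins that steer the cell up a gradient of ligand. Ccr1 binds inflammatory CC chemokines such as Ccl3 and Ccl5, and Ccr2 binds Ccl2 and Ccl7, the chemokines that draw monocytes out of the bone marrow. Cx3cr1 is the receptor of fractalkine, Cx3cl1, and Cmklr1 that of chemerin, the product of Rarres2. Fpr1 and Fpr2 recognise formylated peptides from bacteria and mitochondria, and Fpr2 also Anxa1 and serum amyloid A. Cxcr2 is the neutrophil receptor for Cxcl1, Cxcl2 and Cxcl3, and Ackr3 is an atypical receptor that takes up Cxcl12. Monocytes lose Ccr2 as they mature into macrophages.

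All 8 genes are annotated as protein-coding in GRCm38. Ccr1 (chr9:123962124-123968692, minus strand) and Ccr2 (chr9:124101950-124113557, plus strand) lie 133257 bp apart, and Cx3cr1 is on the same chromosome (chr9:119901616-120069879, minus strand). Fpr1 (chr17:17876471-17883940, minus strand) and Fpr2 (chr17:17887824-17893952, plus strand) lie 3883 bp apart. Fpr2 overlaps Fpr3 on its own strand, and the span of Cx3cr1 overlaps Gorasp1, Csrnp1 and Xirp1 on its own, so reads of the shared parts are uncertain. Cmklr1 is at chr5:113612354-113650426 (minus strand), Cxcr2 at chr1:74153989-74161246 and Ackr3 at chr1:90203980-90216751 (both plus strand).

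The 250 bases before the RefSeq start (GRCm38.p6) are given for Ccr1, which rose in efferocytic BM macrophages, and for Cmklr1, which fell. Capitals mark the PU.1 core GAGGAA or its reverse complement and the HIF core (ACGTG or GCGTG, either strand), the 2 cores for which a match was found among 4 searched. Neither window overlapped an annotated exon.

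Ccr1, chr9:123968693-123968942, minus strand: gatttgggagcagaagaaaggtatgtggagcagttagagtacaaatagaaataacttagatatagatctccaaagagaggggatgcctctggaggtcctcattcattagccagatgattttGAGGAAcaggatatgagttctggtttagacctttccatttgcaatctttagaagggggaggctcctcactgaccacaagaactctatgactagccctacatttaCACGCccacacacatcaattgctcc

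Cmklr1, chr5:113643604-113643853, minus strand: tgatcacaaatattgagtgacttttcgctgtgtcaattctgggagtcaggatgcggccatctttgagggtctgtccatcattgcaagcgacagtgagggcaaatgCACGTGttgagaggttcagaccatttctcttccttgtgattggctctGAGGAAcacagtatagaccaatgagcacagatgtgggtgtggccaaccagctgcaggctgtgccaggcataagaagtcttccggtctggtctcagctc

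Ccr1 and Cmklr1 thus held the same 2 cores, which no other receptor that fell did. The PU.1 core stood 129 bases before the start in Ccr1 and 98 bases before it in Cmklr1. Of 32851 such windows in the table, 23.3% held the PU.1 core and 38.6% the HIF core. The other motifs searched were the STAT palindrome TTCCNGGAA, in 0.913% of windows, and the AP-1 site TGAGTCA with its complement TGACTCA, in 4.46%. Of the other receptors that fell, Ccr2, Cx3cr1 and Fpr1 held none of the 4 motifs, and Fpr2 and Cxcr2 held the PU.1 core alone. Their windows are not printed, and all but that of Fpr2 reach into annotated exons. A match describes letters in a window and not binding.

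Barcodes counted as cells when they reached 200 genes and 1000 UMIs and no more than 10% of their UMIs were mitochondrial, which left 6695 to 13411 cells and 101216659 to 155224183 UMIs per library. All 10 macrophage markers, F4/80 (Adgre1) among them, had UMIs in every library, with summed levels of 34143 to 39627 CPM (counts per 1000000 UMIs) in non-efferocytic and 23866 to 31516 CPM in efferocytic libraries. Efferocytic cells were deeper, with medians of 17171 and 17475.5 UMIs per cell against 11146 and 9600. Fibroblast markers, 6 genes with UMIs in every library, summed to 144 and 46.0 CPM in Experiment 1 and to 120 and 52.3 CPM in Experiment 2, and all 7 receptors that could be tested passed without the fibroblast-like clusters. The 2 libraries of Experiment 2 shared 118 cell barcodes, 0.880% of the non-efferocytic and 1.40% of the efferocytic cells, and other pairs of libraries shared 14 to 23. The log2 fold changes without cells that shared a barcode within an experiment were 1.30 for Ccr1, -2.57 for Ccr2, -3.01 for Cx3cr1, -0.89 for Cmklr1, -2.54 for Fpr1, -1.94 for Fpr2 and -2.08 for Cxcr2, and all 7 genes still passed the test.

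Of the 8 receptors, 7 had enough UMIs to be tested, 1 rose and 6 fell in efferocytic BM macrophages (edgeR quasi-likelihood test on UMIs summed per library, with experiment as a block, adjusted p under 0.05). Over all 13869 genes tested, 38.9% passed, 19.9% as higher and 19.0% as lower. The median log2 fold change was -2.02 for the 7 receptors and -0.02 for all genes tested. Ccr1 was the receptor that rose. With 1 library left out and no block, calls of receptors and of all genes depended on the library left out, as given below. Without either non-efferocytic library no receptor and almost no gene was called. The log2 fold changes kept their direction in all these runs. They ranged from 1.00 to 1.58 for Ccr1, -2.90 to -2.17 for Ccr2, -3.69 to -2.47 for Cx3cr1 and -1.11 to -0.65 for Cmklr1. For Fpr1 they ranged from -3.47 to -1.73, for Fpr2 from -2.94 to -1.03 and for Cxcr2 from -2.40 to -1.63.

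**Figure D1:**
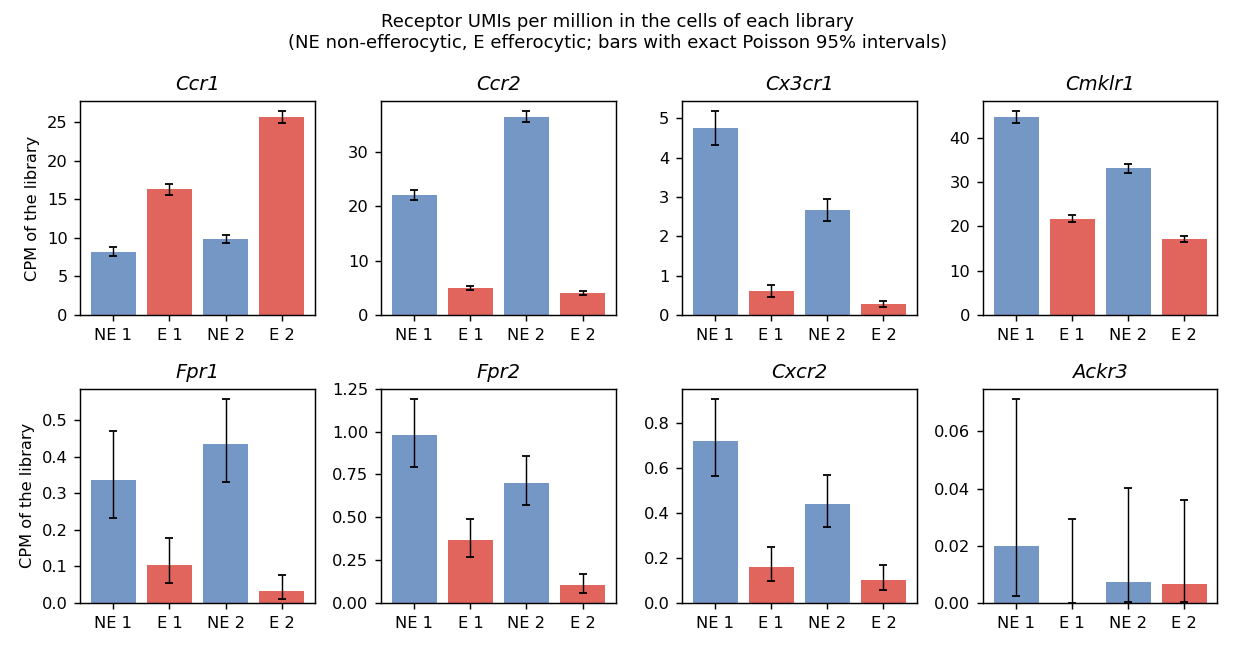
Level in CPM (y axis, own scale per gene) of each receptor in the non-efferocytic (NE, blue) and efferocytic (E, red) library of Experiment 1 and Experiment 2, with exact Poisson 95% intervals that cover counting error only. Ccr1 is higher in both efferocytic libraries, 6 receptors are lower in both, and Ackr3 has at most 2 UMIs in any library.

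Ccr1 measured 8.19 CPM in the non-efferocytic and 16.3 CPM in the efferocytic library of Experiment 1, and 9.80 and 25.6 CPM in Experiment 2. Both efferocytic libraries were above both non-efferocytic ones, and the group means were 8.996 ± 1.139 and 20.9 ± 6.60 CPM (SD, n = 2 libraries each). The rise was 1.99-fold in Experiment 1 and 2.61-fold in Experiment 2. Over both experiments the log2 fold change was 1.30 with an SE of 0.101 (edgeR quasi-likelihood test, adjusted p = 0.00013). Ccr1 is carried by monocytes, macrophages and neutrophils. In macrophage-like clusters alone the log2 fold change of Ccr1 was 1.32.

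Ccr2, the monocyte receptor for Ccl2, went the other way, with 22.1 CPM in the non-efferocytic and 4.95 CPM in the efferocytic library of Experiment 1. In Experiment 2 it measured 36.5 and 4.07 CPM. The groups did not overlap, at 29.3 ± 10.2 and 4.51 ± 0.627 CPM (SD, n = 2 each), and Ccr2 was 4.45-fold lower in Experiment 1 and 8.98-fold lower in Experiment 2. Its log2 fold change was -2.56 with an SE of 0.221 (edgeR quasi-likelihood test, adjusted p = 0.000174). The ratio of Ccr1 to Ccr2 UMIs therefore turned over within each experiment, from 0.371 to 3.29 in Experiment 1 and from 0.268 to 6.30 in Experiment 2. Capture may differ between the 2 transcripts, so the ratio is read between libraries and not as a ratio of molecules.

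Cx3cr1, the fractalkine receptor of monocytes and tissue macrophages, fell with Ccr2 at a lower level. Its level was 4.74 CPM in non-efferocytic and 0.600 CPM in efferocytic cells of Experiment 1, and 2.67 and 0.271 CPM in Experiment 2. This was a 7.90-fold and a 9.86-fold lower level, with a log2 fold change of -3.01 and an SE of 0.183 (edgeR quasi-likelihood test, adjusted p = 5.34e-05). Summed, the 7 listed monocyte markers fell from 226 to 84.3 CPM in Experiment 1 and from 237 to 63.6 CPM in Experiment 2. All 7 had UMIs in every library. Chil3, listed among them, was also a leading gene of the neutrophil-like clusters described below, so the sum need not reflect monocytes alone. The part of these markers in the result was not tested. With 10% of each library removed as free RNA, Cx3cr1 no longer passed (log2 fold change -4.22, edgeR adjusted p = 0.0522). The removal followed the profile of barcodes of 1 to 50 UMIs. There Cx3cr1 measured 10.6 CPM in the efferocytic library of Experiment 2, against 0.271 CPM in cells. All its UMIs in the cells of that library were thus taken away, so this setting cannot decide the call.

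Cmklr1, the chemerin receptor, had most UMIs of the 8 receptors in both libraries of Experiment 1. There it measured 44.7 CPM in non-efferocytic and 21.7 CPM in efferocytic cells, and 33.1 and 17.1 CPM in Experiment 2. The group means were 38.9 ± 8.23 and 19.4 ± 3.24 CPM (SD, n = 2 each), without overlap. The log2 fold change was -0.89 with an SE of 0.0758 (edgeR quasi-likelihood test, adjusted p = 0.000168). The fall in CPM is relative to other transcripts of the cell. Cmklr1 UMIs per 1000 cells were also lower in efferocytic libraries, at 547 and 405 in Experiment 1 and 341 and 316 in Experiment 2. Scaled to UMIs per cell, which moved the median of all genes to 0.60, Cmklr1 was at -0.27 and did not pass (edgeR adjusted p = 0.38), while Ccr1, Ccr2 and Cx3cr1 kept their direction and their call.

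**Figure D2:**
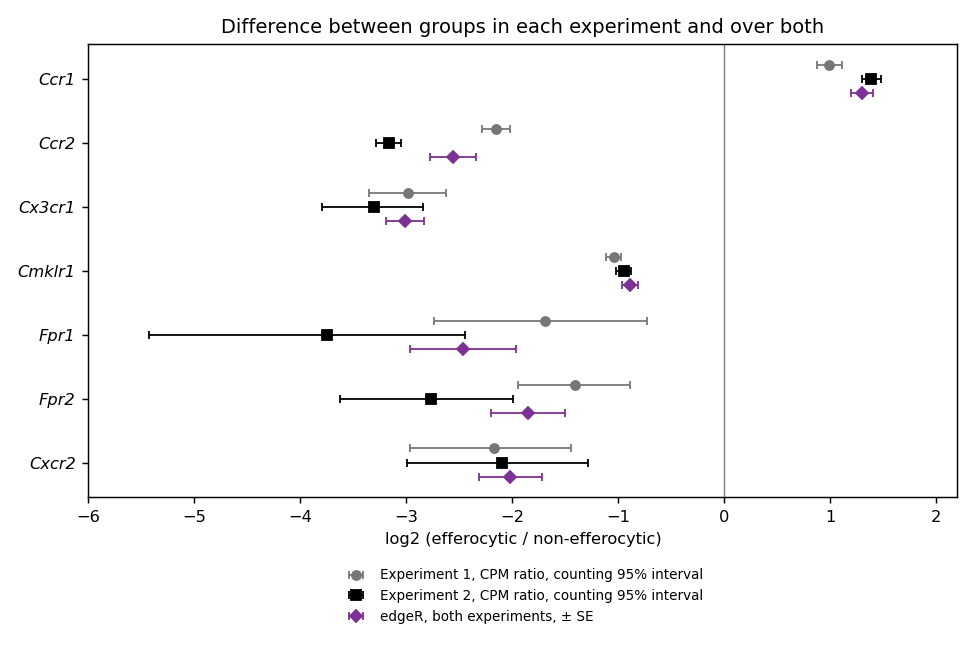
Difference between efferocytic and non-efferocytic libraries (log2 ratio, x axis) for the 7 receptors tested, with the CPM ratio of each experiment (circles and squares, counting 95% intervals) and the edgeR value over both (diamonds, ± SE). Ccr1 lies at 1.30, right of 0, and the others lie from -0.89 (Cmklr1) to -3.01 (Cx3cr1).

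The formyl peptide receptors and Cxcr2 were rare in these cells. In Experiment 1 Fpr1 had 34 UMIs in non-efferocytic and 13 in efferocytic cells, and in Experiment 2 it had 60, of which 1 cell held 17, and 5. Its log2 fold change was -2.47 with an SE of 0.502 (edgeR quasi-likelihood test, adjusted p = 0.00665). Fpr2 measured 0.978 and 0.368 CPM in Experiment 1 and 0.701 and 0.103 CPM in Experiment 2, a log2 fold change of -1.86 with an SE of 0.349 (edgeR quasi-likelihood test, adjusted p = 0.00478). Cxcr2 measured 0.721 and 0.160 CPM in Experiment 1 and 0.441 and 0.103 CPM in Experiment 2, a log2 fold change of -2.02 with an SE of 0.299 (edgeR quasi-likelihood test, adjusted p = 0.00177). The groups did not overlap for any of these 3 genes. How many of all genes tested lacked overlap was not counted. The lack of overlap in these genes, Ccr2 and Cmklr1 is therefore a description only.

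Summed over the 4 libraries, most UMIs of Cxcr2 and Fpr2 came from few cells in clusters led by neutrophil genes. The 239 cells of the neutrophil-like clusters, led by S100a8, S100a9, Ngp and Camp, held 73.5% of the Cxcr2, 56.2% of the Fpr2, 25% of the Fpr1 and 2.62% of the Ccr1 UMIs. A sort on F4/80 should remove neutrophils, and 9 (Experiment 1) and 8 (Experiment 2) of the 10 macrophage markers were detected in these clusters, so whether the cells are neutrophils alone was not tested. The neutrophil-like share of Cxcr2 was 79.5% in the non-efferocytic and 80% in the efferocytic library of Experiment 1, and 77.0% and 25% in Experiment 2. That of Fpr2 was 76.8% and 47.8%, then 46.4% and 12.5%. Macrophage-like clusters held more of the Fpr2 UMIs than neutrophil-like ones in 3 libraries, all but the non-efferocytic one of Experiment 1 (52.2%, 50.5% and 75%), and more of the Cxcr2 UMIs in the efferocytic library of Experiment 2 (68.8%). The efferocytic shares rest on few UMIs, with 20 of Cxcr2 and 46 of Fpr2 in Experiment 1 and 16 of each in Experiment 2. A UMI of Cxcr2 was found in 34.7% of neutrophil-like cells (median 16592 UMIs per cell) and in 0.0852% of macrophage-like cells (median 13737). Neutrophil-like cells made up 0.906% of non-efferocytic and 0.344% of efferocytic cells in Experiment 1, and 0.880% and 0.274% in Experiment 2. The 9 neutrophil markers summed to 2654 and 865 CPM in Experiment 1 and to 2974 and 662 CPM in Experiment 2, all 9 with UMIs in every library.

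**Figure D3:**
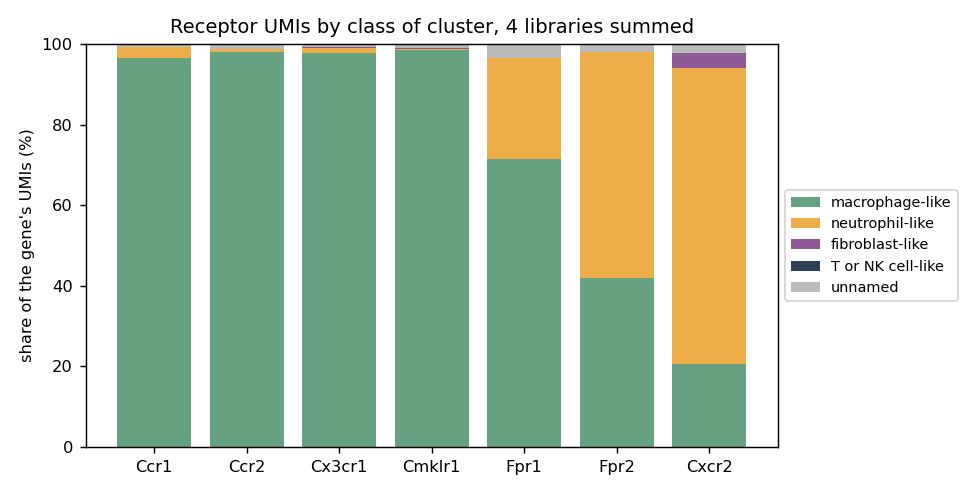
Share of each receptor's UMIs (y axis, percent, 4 libraries summed) by class of cluster. Neutrophil-like clusters hold 73.5% of Cxcr2 and 56.2% of Fpr2 UMIs, whereas macrophage-like clusters hold 96.6% or more of the UMIs of Ccr1, Ccr2, Cx3cr1 and Cmklr1.

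Without the neutrophil-like clusters, Cxcr2 (log2 fold change -1.03, edgeR adjusted p = 0.187) and Fpr2 (-1.08, edgeR adjusted p = 0.0998) no longer passed, and the other 5 receptors did. Fpr1 thus passed without the neutrophil-like clusters, and in macrophage-like clusters alone its log2 fold change was -2.76 (edgeR adjusted p = 0.0128). In macrophage-like clusters Fpr1 had 20 and 7 UMIs in Experiment 1 and 49 and 4 in Experiment 2. Few cells carried the 49, since 25 came from 5 of 204 cells of cluster 7, with the cell of 17 UMIs among them. A further 10 came from 7 cells of cluster 8. Within neutrophil-like cells Ccr1 was abundant in all libraries, with 45.4 and 62.0 CPM in Experiment 1 and 43.9 and 73.8 CPM in Experiment 2, and the intervals of the groups overlapped in both experiments (34.7 to 58.5 against 41.5 to 89.1 CPM, and 35.3 to 53.9 against 51.7 to 102 CPM). With free RNA removed, Fpr1, Fpr2 and Cxcr2 did not pass (log2 fold changes of -2.999, -1.34 and -1.78, edgeR adjusted p of 0.116, 0.184 and 0.179). In the profile subtracted from the efferocytic library of Experiment 2, these genes measured 2.54, 7.63 and 11.3 CPM. Cells of that library had 0.0322, 0.103 and 0.103 CPM. All their UMIs in these cells were thus taken away, so this setting cannot decide the calls.

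Ackr3 was barely detected. Its 4 UMIs were 2 and 0 in Experiment 1 and 1 and 1 in Experiment 2, too few to be tested. A count of 0 in the efferocytic library of Experiment 1 allows up to 0.024 CPM. Of the 4 UMIs, 2 came from 1 fibroblast-like cell and 1 from the 32874 macrophage-like cells.

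The share of cells with a UMI followed depth as well as level, so each cell was also thinned to 5000 UMIs, which left out 1099 and 544 cells in Experiment 1 and 3404 and 505 in Experiment 2. Ccr1 was found in 2.76% of non-efferocytic and 6.06% of efferocytic thinned cells in Experiment 1, and in 3.33% and 9.55% in Experiment 2, against 5.79%, 16.0%, 6.28% and 23.8% before thinning. Ccr2 was found in 6.06% and 1.59% of thinned cells in Experiment 1 and in 9.66% and 1.51% in Experiment 2. The Ccr2 shares before thinning were 8.88%, 3.38%, 12.2% and 3.57%. A smaller share of cells thus had Ccr2 in the efferocytic libraries. Before thinning, a Ccr2-positive cell held on average 3.04 (non-efferocytic) and 2.74 (efferocytic) Ccr2 UMIs in Experiment 1, against 3.08 and 2.10 in Experiment 2. Efferocytic cells were deeper, so these averages do not compare the groups at like depth.

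The share of cells with Cmklr1 also moved with depth. Before thinning its share was 37.7% and 29.7% in Experiment 1 and 26.4% and 24.2% in Experiment 2. At 5000 UMIs the shares were 21.1% and 11.3%, and 16.1% and 8.34%. Fibroblast-like cells gave 29.7% before thinning (median 38507 UMIs per cell) and 8.00% after it (exact binomial 95% interval 3.52% to 15.2%, 100 cells), against 14.5% of thinned macrophage-like cells. The thinned shares of efferocytic cells lay within this interval and those of non-efferocytic cells above it. All 10 macrophage markers were detected in the fibroblast-like clusters, whose median UMI counts were 3.54 and 2.80 times those of their libraries, so these cells are no receptor-free background and their shares are given for comparison alone. For Ccr1 the thinned fibroblast-like share was 0 of 100 cells, which allows up to 3% (exact upper bound 3.62%), and for Ccr2 it was 2.00% (0.243% to 7.04%). Cx3cr1 was found in 1.52% and 0.163% of thinned cells in Experiment 1 and in 0.979% and 0.114% in Experiment 2, against 1 of 100 fibroblast-like cells (1.00%, 0.0253% to 5.45%). Of these 3 genes, Ccr1 in both efferocytic libraries and Ccr2 in the non-efferocytic library of Experiment 2 had thinned shares above the upper bound of the fibroblast-like share. The other Ccr1 and Ccr2 shares and all 4 Cx3cr1 shares could not be set apart from it with 100 cells.

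**Figure D4:**
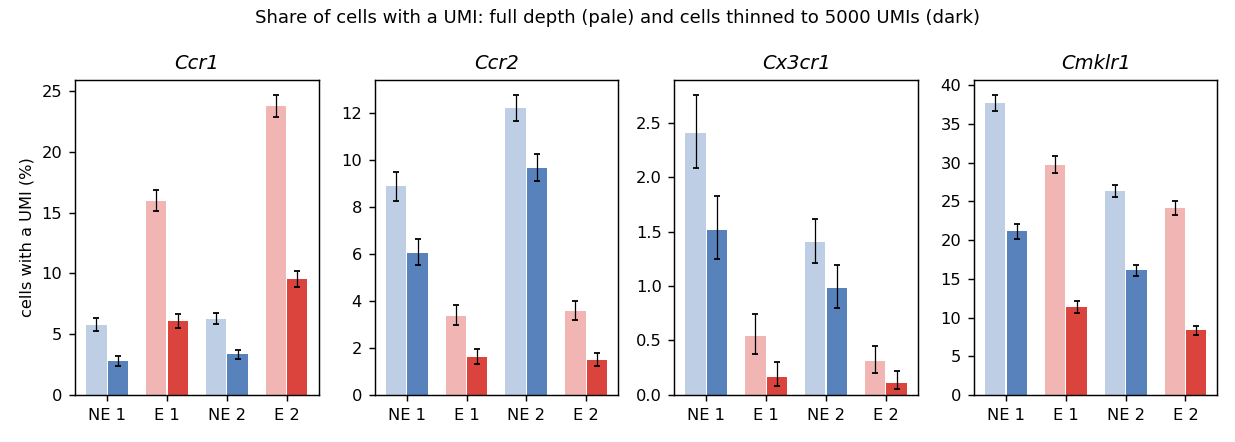
Share of cells with a UMI (y axis, percent, exact binomial 95% intervals that cover counting error only) in non-efferocytic (NE, blue) and efferocytic (E, red) libraries, at full depth (pale) and thinned to 5000 UMIs (dark). The gap between the groups in Cmklr1 is wider in thinned cells (21.1% and 11.3% in Experiment 1) than at full depth (37.7% and 29.7%), and Ccr1 is higher in efferocytic cells at either depth.

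The receptors were then followed across clusters of each experiment, made without the 8 genes. Most macrophage-like cells of the groups fell into different clusters. In Experiment 1 non-efferocytic cells were mainly in cluster 1 (led by Ier3, Hpgd and Gpr34) and efferocytic cells in cluster 0 (led by Fabp4, Arg1 and Pf4). In Experiment 2 they were mainly in cluster 0 (led by the class II genes H2-Eb1 and H2-Aa) and cluster 2 (led by Mmp12 and Matk), against cluster 1 (led by Cnrip1, Cd33 and Pf4) and cluster 3 (led by Cdkn1c, Pdpn and Npy).

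Ccr1 and Ccr2 were high in different clusters. Ccr1 was high in efferocytic cells of several clusters. In those led by Cdkn1c, with Npy among the leading genes, it measured 39.7 CPM in efferocytic cells of Experiment 1 (cluster 8) and 40.7 CPM in those of Experiment 2 (cluster 3). There Ccr2 had 0 UMIs in 187 cells of Experiment 1 and measured 0.751 CPM in Experiment 2. Ccr1 stood at a like level in efferocytic cells of cluster 7 of Experiment 2, at 44.5 CPM. Over cells of both libraries, that cluster was led by Cxcl3 and Ero1l. Cxcl3 had 604 UMIs in the whole non-efferocytic and 15 in the whole efferocytic library of that experiment. In efferocytic cells of the clusters led by Mmp12, Ccr1 measured 37.6 CPM (cluster 2 of Experiment 1) and 35.6 CPM (cluster 2 of Experiment 2). Those clusters held mostly non-efferocytic cells (1345 against 397, and 3214 against 88). Non-efferocytic cells of these clusters also had Ccr1 above their whole libraries (8.19 and 9.80 CPM). It measured 17.1 (cluster 8) and 19.3 CPM (cluster 2) in Experiment 1. In Experiment 2 it measured 23.1 (cluster 3), 19.4 (cluster 7) and 17.1 CPM (cluster 2). Ccr2 was high in non-efferocytic cells of the class II led clusters, at 54.3 (Experiment 1, cluster 3) and 56.6 CPM (Experiment 2, cluster 0). Ccr1 measured 5.38 and 2.61 CPM there. This was not a trait of those cells alone. Efferocytic cells of cluster 3 of Experiment 1 had Ccr2 at 32.8 CPM. Non-efferocytic cells of cluster 8 of Experiment 2, led by Cxcl10 and Saa3, had it at 56.6 CPM. Cycling cells, in clusters led by Birc5 and Cenpf, had the highest Ccr2 of non-efferocytic macrophage-like cells, at 70.8 and 62.5 CPM. Correlations were taken over 39 sums of a cluster in a library, with at least 50 cells each. Besides macrophage-like clusters, these took in neutrophil-like, T or NK cell-like and unnamed ones. Over them log2(CPM + 1) of Ccr1 and Ccr2 had a Pearson r of -0.49, and that of Ccr2 and Cx3cr1 an r of 0.76. These sums share libraries and depth, so the correlations are descriptions.

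**Figure D5:**
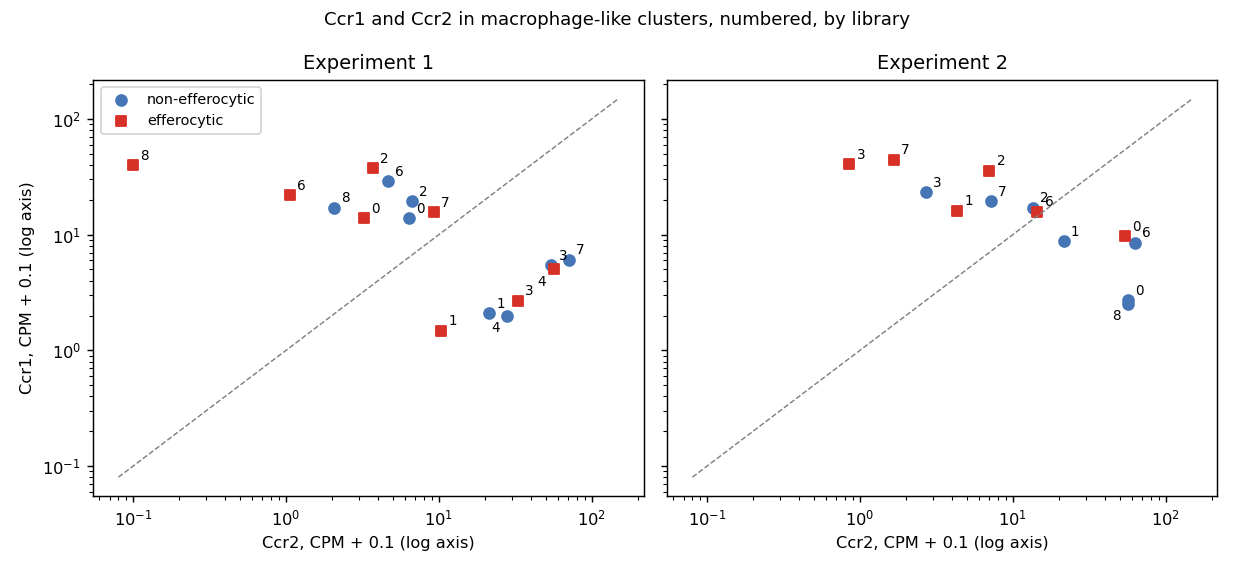
Ccr1 (y axis) against Ccr2 (x axis), both as CPM + 0.1 on log axes, in the macrophage-like clusters of each experiment, 1 point per cluster (its number beside it) and library, with at least 50 cells; the dashed line marks equal values. Points below the line have Ccr2 from 10.2 to 70.8 CPM, and the cycling clusters (7 in Experiment 1, 6 in Experiment 2) and cluster 1 of Experiment 2 lie below the line in non-efferocytic and above it in efferocytic cells.

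Cells of like kind also differed between groups. In the cycling cluster of Experiment 1, with 172 non-efferocytic and 159 efferocytic cells, Ccr2 measured 70.8 and 9.14 CPM, Ccr1 5.96 and 15.5 CPM and Cmklr1 32.8 and 13.4 CPM. In that of Experiment 2, with 314 and 356 cells, Ccr2 measured 62.5 and 14.4 CPM, Ccr1 8.42 and 15.7 CPM and Cmklr1 29.3 and 13.6 CPM. None of these intervals overlapped between groups. Within 14 macrophage-like clusters that had at least 50 cells of both groups (8 in Experiment 1, 6 in Experiment 2), Ccr2 was lower in efferocytic cells in 13, with non-overlapping counting intervals in 10. The exception was the interferon cluster of Experiment 1, led by Cxcl10 and Rsad2, with 27.9 and 56.4 CPM. There 9 of 94 efferocytic cells held all 92 Ccr2 UMIs, and the share of cells with Ccr2 was 12.1% in non-efferocytic and 9.57% in efferocytic cells. Cmklr1 was lower in 12 of 14, 11 of them with non-overlapping intervals, and Ccr1 was higher in 10 of 14, 9 of them with non-overlapping intervals. Ccr1 was not higher in clusters 0, 1, 3 and 6 of Experiment 1, where cluster 0 measured 13.8 CPM in non-efferocytic and 13.7 CPM in efferocytic cells. With 1 library per group and experiment, these values had no test. How many of all genes had non-overlapping counting intervals in these clusters was not counted, so the lack of overlap is a description only.

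Within single cells thinned to 5000 UMIs, Ccr2 and Cx3cr1 were found together more often than the product of their shares. In the non-efferocytic library of Experiment 1, 27 cells had both, against 6.60 for the product, and in that of Experiment 2, 38 cells against 9.47. Ccr1 and Ccr2 were found together in 9 cells against 11.99 and in 22 cells against 32.2 in the same libraries. In efferocytic libraries the pair Ccr1 and Ccr2 was found in 8 cells against 5.94 (Experiment 1) and 8 against 11.4 (Experiment 2). These are counts in sparse data and carry no test.

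The genes whose level over the 39 sums was most like that of a receptor were compared among 8623 genes. These sums were not of macrophage-like clusters alone. Anxa1, an Fpr2 ligand, stood nearest to Ccr1 (Pearson r 0.88), followed by Pgam1, Actn4, Hk3 and Vkorc1l1 (0.83 to 0.85). Nearest to Ccr2 were Cyp4f18, Rnase6, Parp2, Pou2f2 and Surf1 (0.78 to 0.83). Ccr2 itself stood nearest to Cx3cr1, followed by Gm34084, Fcrls, Parp2 and Aif1 (0.72 to 0.75). Nearest to Cmklr1 was Csf1r (0.92), the M-CSF receptor, followed by Ralgds, Eva1b, Clec4a3 and Rassf4 (0.89 to 0.91).

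Of 35 other chemoattractant receptors, 17 were tested, 1 rose and 6 fell, a share near that of all genes. Their median log2 fold change was -0.25. C5ar1, the C5a receptor, rose (195 and 211 CPM in Experiment 1, 153 and 225 CPM in Experiment 2, log2 fold change 0.44). This call was lost without the block, with free RNA removed and without the class II led clusters. Ltb4r1, a leukotriene B4 receptor, fell by 1.80 on the log2 scale (3.85 and 1.06 CPM, then 3.53 and 0.921 CPM). Ccr3, the eotaxin receptor, fell by 1.16 (2.17 and 0.808 CPM, then 1.67 and 0.773 CPM). Scaled to UMIs per cell, 4 of the other receptors were higher and 2 lower.

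Of 24 ligands, 21 were tested, 4 rose and 8 fell (12 of 21, against 38.9% of all genes), with a median of -0.85. The median was -0.40 over the 19 ligands tested without the fibroblast-like clusters and -0.34 over 18 in macrophage-like clusters alone, with 4 higher and 8 lower in both. Mif rose most, with 170 and 438 CPM in Experiment 1 and 174 and 453 CPM in Experiment 2 (log2 fold change 1.48). RM1 is also a mouse line, so for this or any other gene UMIs of engulfed RM1 cells cannot be told apart from those of macrophages. Ccl2, a Ccr2 ligand, rose from 27.0 to 30.1 CPM in Experiment 1 and from 21.7 to 47.2 CPM in Experiment 2 (0.75), while Ccr2 fell. Ccl4 rose as well (0.68). The rises depended on the setting, as only 1 ligand passed as higher without the block, and only 1 with free RNA removed. The Cxcr2 ligands Cxcl3, Cxcl1 and Cxcl2 fell by 5.24, 2.84 and 2.40 on the log2 scale. Their levels differed between the experiments, with Cxcl2 at 87.2 and 8.01 CPM in Experiment 1 and at 8.38 and 3.1 CPM in Experiment 2. The chemerin gene Rarres2 (log2 fold change -0.92) and Anxa1 (0.26) did not pass (edgeR adjusted p of 0.11 and 0.0827).

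Of 27 signalling genes downstream of these receptors, all 27 were tested, 5 rose and 9 fell (14 of 27, against 38.9% of all genes), with a median of 0.04. Gnb1, a G protein beta subunit, and Pik3r5, a subunit of PI3K gamma, rose (both 0.57), as did Rgs18 (0.31). Rgs2 and Rgs10, which speed the shutdown of G proteins, fell by 0.87 and 0.72, and Grk3, a receptor kinase, by 0.74. The direction of this list depended on the scale, with 16 genes higher and none lower when scaled to UMIs per cell, and the ligands split into 7 higher and 7 lower.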

How the data were processed

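Single-cell 3′ reads were aligned to mm10 by the authors (Cell Ranger), who deposited unfiltered, unnormalised UMI counts for every barcode. Cell Ranger 3.0.0 is named in the methods, the submitters' processing notes and the headers of Experiment 1, and 3.1.0 in the headers of Experiment 2. The authors' Seurat integration was not repeated.

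The filter of the methods was applied to all deposited barcodes, without Cell Ranger's cell calling before it. With that rule added, 6158 to 10615 cells per library remained and all 7 receptors passed. Per library, the UMIs of all cells were added up gene by gene, and the sums entered edgeR 4.0.16 (R 4.3.3; TMM, filterByExpr, glmQLFit and glmQLFTest, experiment as a block), with Benjamini-Hochberg adjustment over all genes tested and a threshold of 0.05. Deviations of the 2 libraries of an experiment from their group means correlated (r = 0.788, 7089 genes), and the experiment label marks the pairing. The SE beside an edgeR log2 fold change is its absolute value divided by the square root of the quasi-likelihood F. CPM is relative to all UMIs of a library's cells. Within an experiment there is 1 library per group and no test. Exact Poisson and binomial 95% intervals, and the limit for a count of 0 (3 counts), cover counting error only. Fold changes on CPM within an experiment were not TMM scaled. At these totals a count of 0 allows 0.0193 to 0.0296 CPM.

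Clusters were made per experiment (scanpy 1.11.5, 5000 variable genes without the 8 receptors, 20 principal components, 20 neighbours, leidenalg 0.10.2 at resolution 0.5). A cluster was called by a type when at least 3 of its markers were detected in at least 25% of cells and were the most frequent markers among its 10 leading genes, or, for macrophages, when at least 5 of 10 markers were detected and its median UMI count was not under 1/3 of that of its library. This naming rule was set after the data were seen. Clusters of few UMIs stayed unnamed, except 1 T or NK cell-like cluster of Experiment 2 with Cd3d and Trac among its leading genes. Doublets were kept in the main values. Promoter windows are from RefSeq and gene positions from GENCODE M21, with 8 of 8 genes matched in each.

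The receptors and the gene lists were chosen with earlier results of these data known. Genes named from a list are the 3 with the largest log2 fold change in each direction among those that passed and averaged 1 CPM or more; Rarres2 and Anxa1 were named beside them as ligands of listed receptors, after their values were seen, and 1 gene that this rule names is not reported here. Genes alike are the 5 with the highest correlation, for receptors that averaged 1 CPM or more, among genes that averaged 5 CPM or more. The test was checked on simulated counts. Alternatives covered DESeq2 1.42.0, no block, other scalings, cell and gene filters, free RNA, subsets of clusters and each library left out.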

Additional observations from a re-analysis of the deposited data

Results flagged for a closer look

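Barcodes of at least 200 but under 1000 UMIs, below the filter on cells and in no comparison above, held 9 receptor levels whose Poisson interval lay wholly above that of the cells of the same library. In the efferocytic library of Experiment 2 these were Ccr2 at 10.4 CPM (4.07 in cells), Cx3cr1 at 4.99 CPM (0.271), Fpr2 at 2.39 CPM (0.103), Fpr1 at 0.651 CPM from 3 UMIs (0.0322) and Ackr3 at 1.30 CPM from 6 UMIs (0.00644). In the non-efferocytic library of Experiment 2 they were Ccr1 at 12.7 CPM (9.80 in cells), Fpr2 at 2.09 CPM (0.701) and Ackr3 at 0.326 CPM from 10 UMIs (0.00723). In the efferocytic library of Experiment 1 it was Ackr3 at 0.432 CPM from 2 UMIs (0 UMIs in cells). Ccr2 in such barcodes of Experiment 2 measured 21.2 CPM in the non-efferocytic and 10.4 CPM in the efferocytic library, in the same direction as in cells but closer together. In Experiment 1 it measured 11.1 and 2.59 CPM. What these barcodes hold was not tested.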

How the results depend on the processing

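No receptor changed direction under any alternative run. Over 16 alternatives that kept 4 libraries, Ccr1 (log2 fold change 0.92 to 1.92) and Ccr2 (-3.72 to -1.94) passed the edgeR or DESeq2 test in all. Cx3cr1, Cmklr1 and Fpr1 passed in 15, Cxcr2 in 13 and Fpr2 in 12. With 10% free RNA removed, 3 receptors passed (Ccr1, Ccr2, Cmklr1), with 4 other receptors, 4 ligands, 9 signalling genes and 3080 genes in all. That removal took away all UMIs of Cx3cr1, Fpr1, Fpr2 and Cxcr2 in the efferocytic library of Experiment 2, so it cannot decide their calls. Without the class II led clusters all 7 passed, with 4 other receptors, 6 signalling genes and 2869 genes in all. DESeq2 called all 7, with 9 signalling genes and 3404 genes in all. Without the replicate block, Fpr2 (-1.73, edgeR adjusted p = 0.105) was lost, and 3 other receptors, 4 ligands, 6 signalling genes and 2358 genes in all passed. In macrophage-like clusters alone, Fpr2 (-1.17) and Cxcr2 (-0.64) were lost (edgeR adjusted p of 0.125 and 0.404). Unscaled library totals moved the median of all genes to -0.12 and the share of calls that were lower from 48.8% to 66.7%, and scaling to UMIs per cell moved it to 7.81%. The cause of these changes was not tested.

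Leaving out 1 library at a time, without the block and with the lone library assumed to vary like the others, gave 0 to 7 receptors, 0 to 4 other receptors, 0 to 5 ligands, 0 to 7 signalling genes and 0 to 2933 genes in all. Without the non-efferocytic library of Experiment 1 or of Experiment 2 edgeR called 0 receptors, with 6 at an unadjusted p under 0.05 in each case, and 2 and 0 genes in all, with 2999 and 3494 at that unadjusted p. Without the efferocytic library of Experiment 1 all 7 passed, and without that of Experiment 2 Ccr1, Ccr2 and Cx3cr1 did. Shares thinned to 5000 or 3000 UMIs kept their direction except for Ackr3, which had no UMI left. The removal of doublets by the threshold of scrublet was not run, since it marked at most 1 cell per library. Removal of the highest scores at 0.8% per 1000 cells, and the subsets without clusters of few UMIs or shared barcodes, were chosen after seeing the data, and all 7 receptors passed under them. Counts under 100 UMIs limit Fpr1, Fpr2 and Cxcr2.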

Other observations

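In barcodes of 1 to 50 UMIs, mostly empty droplets, Ackr3 measured 4.54 CPM (19 UMIs) in the non-efferocytic and 3.48 CPM (15 UMIs) in the efferocytic library of Experiment 1, against 0.0198 and 0 CPM in cells. In Experiment 2 it had 1 and 0 UMIs there. Cxcr2 measured 9.68 and 11.3 CPM in such barcodes of Experiment 2, against 0.441 and 0.103 CPM in cells, and Fpr2 6.96 and 7.63 CPM against 0.701 and 0.103 CPM. In Experiment 1 Cxcr2 had 4 and 0 UMIs in them. Ccr2 measured 24.4 and 19.0 CPM in such barcodes of Experiment 1 and 42.2 and 31.3 CPM in those of Experiment 2, so its 2 groups lay closer together there than in cells (22.1 and 4.95, then 36.5 and 4.07 CPM). Cx3cr1 measured 3.11 and 0.695 CPM, then 7.11 and 10.6 CPM, against 4.74, 0.600, 2.67 and 0.271 CPM in cells. Ccr1 measured 7.17 and 9.501 CPM, then 33.6 and 51.8 CPM, against 8.19, 16.3, 9.80 and 25.6 CPM.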
